A study of Mus musculus with 18 samples.

Results

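The uninjured adult mouse retina was described here by the 4 of 18 arrays on which RNA of an uncrushed, Cre-negative retina was hybridised beside a universal mouse reference RNA. These are all the arrays whose title, treatment and description agree that the retina was Cre-negative and uncrushed. In these mice Map3k12, the gene of the neuronal kinase DLK (dual leucine zipper kinase), was floxed but no Cre transgene was present. They had received tamoxifen when 10 to 12 weeks old. They were littermate controls in a study of optic nerve crush, the tissue is dated to 3 days after crush, and the uninjured eye served as the control. The labels give neither strain nor sex, and do not state that each of the 4 samples is another animal. The p-values below therefore rest on the spread between samples, which may be technical. The other 14 arrays held 5 Cre-positive uncrushed, 5 Cre-positive crushed and 3 Cre-negative crushed retinas, and 1 array with disagreeing labels that entered no group.

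Each array compared 2 RNAs on the same spots. Retinal RNA carried the red dye Cy5, and the commercial reference, a pool of RNA made to give signal for many mouse genes, carried the green dye Cy3. The measure is the log2 ratio of Cy5 over Cy3, so a ratio above 0 means more signal from retina than from the pool. No array had the dyes swapped, so retina and Cy5 cannot be told apart, and the pool is 1 RNA whose own spread was not measured. A ratio shows what separates retina from this pool, not how much of an RNA the retina holds. In whole retina, fewer cells of a type and less RNA per cell cannot be told apart.

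The retina turns light into nerve signals through a short chain of cells. Rods and cones, the photoreceptors, hold an opsin that starts a cascade ending in the closure of a channel in the outer membrane. Bipolar cells pass the signal to ganglion cells, whose axons form the optic nerve, while horizontal and amacrine cells shape it sideways. Müller glia span the tissue, and in the adult mouse nearly all of its neurons have left the cell cycle.

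A gene was called when limma's treat, which tests whether a ratio exceeds 2-fold either way, gave a Benjamini-Hochberg adjusted p under 0.05 over all genes. Of 24585 genes tested, 4807 were higher in retina (19.6% of genes) and 3977 were lower (16.2%), while 15801 were not called. Of the called genes 54.7% were higher, against 65.4% (6181 higher and 3264 lower) with median centring in place of loess and 79.1% (8433 and 2223) with no normalization. Shares in the gene lists below are read against the 19.6% higher and 16.2% lower. The lists and their members were chosen with earlier results of these data known. Their counts may partly reflect that choice, describe the lists only and carry no test. The ratios ran from -7.35 to 9.43, with a median of 0.07 over all genes and quartiles of -0.64 and 0.82. Past a log2 ratio of 4, which is 16 times the reference, lay 545 higher genes, and 255 lower genes lay past -4. Across genes, r between arrays was 0.993 to 0.996, and the median SD of a gene over the 4 arrays was 0.0879. Genes are not independent replicates, so these values describe the arrays only. Between 70.7% and 74.3% of probes had Cy5 well above background and between 64.8% and 73.9% had Cy3, and no spot was saturated on any of the 4 arrays (0 in each). The scanner software set the ratios of its spike-in RNAs against their known ratios. It found slopes of 0.737 to 0.75, so the true ratios of those spike-ins were wider than the measured ones. The intercepts were -0.759 to -0.623 in log10, so the spike-in ratios were also shifted. What this shift means for the ratios of genes was not tested.

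**Figure D1:**
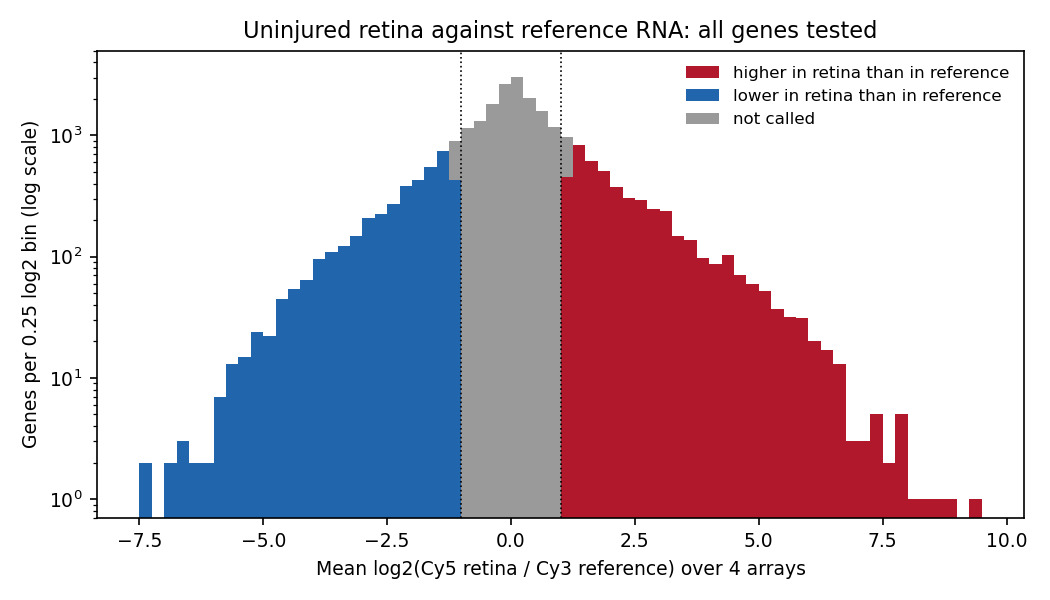
Number of genes (log scale) per 0.25 bin of the mean log2 ratio of retina (Cy5) over reference (Cy3) on 4 arrays, for the 24585 genes tested. Red marks the 4807 genes called higher in retina and blue the 3977 called lower, dotted lines stand at a 2-fold ratio, and the highest ratio is 9.43 against a lowest of -7.35.

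Among genes measured in both dyes on all 4 arrays, those with the highest ratios were mostly photoreceptor genes. Pdc, which encodes phosducin, a rod protein that binds the beta and gamma subunits of transducin, read 9.26, 9.53, 9.33 and 9.59 on the 4 arrays. Its mean of 9.43 ± 0.16 (SD, n = 4) is a 688-fold excess over the reference (limma treat adjusted p = 3.3e-12). All 4 arrays lay within 0.4 of each other there, far from 0. Wdr17, a WD repeat gene, followed at 8.86 ± 0.10 and Mgarp, a mitochondrial protein gene, at 8.22 ± 0.07. Impg2, a proteoglycan of the matrix around photoreceptors, stood at 7.86 ± 0.21. Gngt1, the rod transducin gamma subunit, stood at 7.76 ± 0.06, and Gnat1, the rod transducin alpha subunit, at 7.48 ± 0.13. Cnga1, the rod channel that cyclic GMP holds open, stood at 7.62 ± 0.09, and Pde6a, a subunit of the phosphodiesterase that breaks cyclic GMP down, at 7.29 ± 0.16. Lrit1, a leucine-rich repeat membrane protein of photoreceptors, and Prom1, a protein of the outer segment discs, stood at 7.57 ± 0.14 and 7.36 ± 0.14. A second Prom1 probe read 4.93, so the size of a ratio depends on the probe that was read.

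At the low end, Col1a1, the main chain of fibrillar collagen I, read -7.50, -7.27, -7.47 and -7.15. Its mean of -7.35 ± 0.17 is a signal 163 times lower in retina than in the reference (limma treat adjusted p = 4.7e-12). Ifi202b, an interferon-inducible gene with close relatives, stood at -7.31 ± 0.08 and Emp1, an epithelial membrane protein, at -6.99 ± 0.13. Uhrf1 (-6.96 ± 0.04), Rrm2 (-6.58 ± 0.03), Mki67 (-6.53 ± 0.13) and Birc5 (-6.31 ± 0.06) are genes of dividing cells. Cdkn2a, a cell cycle inhibitor active in many cultured lines, stood at -6.62 ± 0.07 and Dlk1, a fetal growth gene, at -6.30 ± 0.08. Other probes of Cdkn2a and Dlk1 read -2.97 and -3.38, and the weakest of 3 Birc5 probes read -3.88. Rpl39l, a near copy of a ribosomal protein gene, completes these 10 at -6.22 ± 0.10. In each of these 20 genes the arrays were much closer to one another than to 0.

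**Figure D2:**
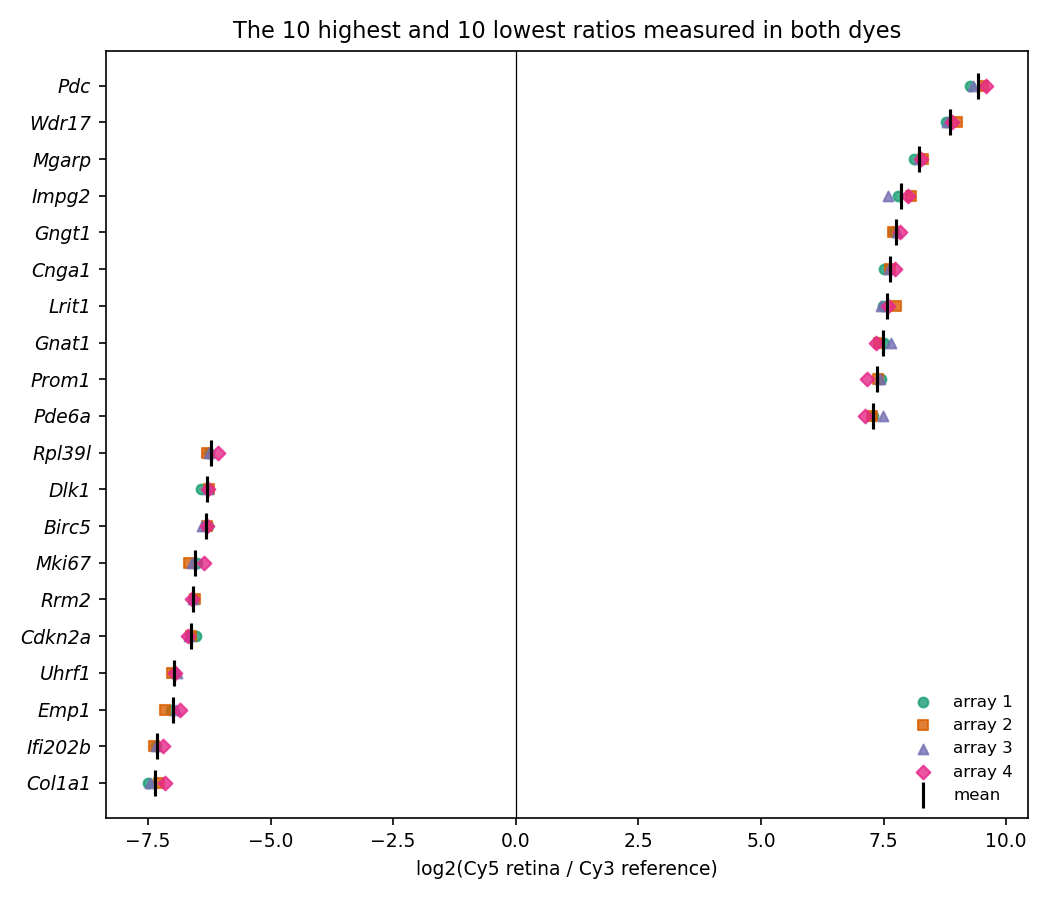
The log2 ratio of retina over reference on each of 4 arrays (symbols) with the mean (bar), for the 10 highest and 10 lowest genes with both dyes well above background on every array. The symbols of a gene lie close together, from Pdc at 9.26 to 9.59 down to Col1a1 at -7.50 to -7.15.

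Promoters of a few genes from the rod and cell cycle lists, whose medians lie at the 2 ends of this scale, are shown first. They are examples that hold the short motifs marked in them. Sequences are from RefSeq on GRCm38.p6, run from 250 bases before the transcript start to 50 after it, and read 5′ to 3′ along the gene's strand. In the following rod promoters capitals mark TAATCC, the core that the photoreceptor factors CRX and OTX2 are known to bind, or its reverse complement GGATTA.
Cnga1, chr5:72642703-72643002, minus strand: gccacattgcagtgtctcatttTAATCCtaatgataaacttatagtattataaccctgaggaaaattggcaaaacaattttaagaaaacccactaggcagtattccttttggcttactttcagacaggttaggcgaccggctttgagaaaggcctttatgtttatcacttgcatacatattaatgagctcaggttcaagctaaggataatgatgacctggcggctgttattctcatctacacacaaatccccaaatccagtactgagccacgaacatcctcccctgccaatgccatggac
Gngt1, chr6:3993758-3994057, plus strand: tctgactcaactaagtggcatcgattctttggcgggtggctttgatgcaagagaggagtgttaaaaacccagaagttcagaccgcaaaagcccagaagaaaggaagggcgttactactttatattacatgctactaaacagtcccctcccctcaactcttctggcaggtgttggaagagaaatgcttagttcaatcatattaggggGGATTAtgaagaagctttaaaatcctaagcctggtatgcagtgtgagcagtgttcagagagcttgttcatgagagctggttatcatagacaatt
Sag, chr1:87803430-87803729, plus strand: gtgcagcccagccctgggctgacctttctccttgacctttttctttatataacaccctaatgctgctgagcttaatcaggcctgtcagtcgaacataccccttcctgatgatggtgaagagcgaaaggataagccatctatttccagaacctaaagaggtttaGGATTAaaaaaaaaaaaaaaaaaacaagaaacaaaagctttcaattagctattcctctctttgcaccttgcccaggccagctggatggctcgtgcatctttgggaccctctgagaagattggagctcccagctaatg
All 3 genes were far above the reference: Sag, which encodes rod arrestin, stood at 6.14 ± 0.04, beside Cnga1 at 7.62 and Gngt1 at 7.76. Only 8 of 21 rod promoters hold TAATCC, and that of Pdc, the gene of the highest ratio, does not (0).

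In these cell cycle promoters capitals mark TTTGAA, the cell cycle element, and CCAAT, each also in its reverse complement (TTCAAA and ATTGG).
Mki67, chr7:135716330-135716629, minus strand: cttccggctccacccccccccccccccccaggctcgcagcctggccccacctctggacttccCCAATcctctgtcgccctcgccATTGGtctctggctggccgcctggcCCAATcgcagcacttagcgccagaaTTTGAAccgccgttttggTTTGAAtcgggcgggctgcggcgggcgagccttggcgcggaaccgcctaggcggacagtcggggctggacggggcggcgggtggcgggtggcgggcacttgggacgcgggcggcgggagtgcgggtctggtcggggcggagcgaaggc
Cdk1, chr10:69352863-69353162, minus strand: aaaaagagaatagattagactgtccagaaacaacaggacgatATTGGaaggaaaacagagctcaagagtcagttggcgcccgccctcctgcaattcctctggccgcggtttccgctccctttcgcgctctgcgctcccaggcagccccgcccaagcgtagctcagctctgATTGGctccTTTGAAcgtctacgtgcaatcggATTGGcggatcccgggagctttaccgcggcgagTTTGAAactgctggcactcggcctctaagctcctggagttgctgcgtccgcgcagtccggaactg
Cdc20, chr4:118437294-118437593, minus strand: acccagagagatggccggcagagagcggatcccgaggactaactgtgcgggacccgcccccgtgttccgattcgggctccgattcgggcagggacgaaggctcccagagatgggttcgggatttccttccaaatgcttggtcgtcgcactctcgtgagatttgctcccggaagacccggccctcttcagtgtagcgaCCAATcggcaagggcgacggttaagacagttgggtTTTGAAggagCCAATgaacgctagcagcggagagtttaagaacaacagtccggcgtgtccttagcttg
Mki67, the proliferation marker Ki-67, stood at -6.53, Cdk1, the kinase that drives mitosis, at -4.29 ± 0.11, and Cdc20, an activator of the anaphase-promoting complex, at -4.74 ± 0.08. A second Cdk1 probe read only -0.25. Not all cell cycle promoters hold these motifs: that of Birc5 holds neither (0 and 0), and that of Rrm2 no TTTGAA (0).

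On both strands, TAATCC was found in 8 of 21 rod promoters (38.1%), in 4 of 22 bipolar promoters (18.2%) and in 2 of 20 cone promoters (10%). All 32851 RefSeq promoters of that length hold it in 7.06%, and genes tested here in 6.07%. It was in 12.7% of the promoters of genes called higher past a log2 ratio of 4 and in 6.99% of all genes called higher. It was in 6.59% of those called lower past -4 and in 5.03% of all genes called lower. None of 45 cell cycle promoters held it (0). There CCAAT was found in 75.6%, against 37.4% of all promoters and 37.6% of genes tested. It was also in 47.6% of rod, 54.5% of bipolar and 62.5% of Hox promoters. TTTGAA was in 44.4% of cell cycle promoters, against 17.9% of all promoters and 13% of genes tested, and in 9.52% of rod, 30% of cone and 27.3% of bipolar promoters. The E2F core TTCCCGC was in 15.6% of cell cycle promoters, against 4.6% of all promoters and 7.06% of genes tested. No rod promoter held TTCCCGC (0 of 21), and TATAAA was in 14.3% of rod promoters and 13.6% of all. The median number of CpG in 300 bases was 4 in rod, 5 in cone, 5.5 in bipolar and 24 in cell cycle promoters, against 7 in all promoters and 17 in genes tested. A gene with several starts adds several promoters, and most cone promoters with TTTGAA were starts of a single gene, Ccdc136. A motif here is a match of letters, with no test and no measure of binding.

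Rod genes stood highest of the 37 gene lists by median. All 26 rod genes were on the array, all were tested and all 26 were called higher, with ratios of 1.36 to 9.43 and a median of 5.87. Gnat1 read 7.51, 7.41, 7.65 and 7.35, a mean of 7.48 and 179 times the reference (limma treat adjusted p = 3.4e-12). Rp1, a microtubule protein of the photoreceptor cilium, stood at 8.32 ± 0.12 with Cy3 measured on 3 of the 4 arrays. Cy3 was well above background on all 4 arrays for 24 of these 26 genes, and whether that signal came from reference RNA was not tested.

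Cone genes were higher in 14 of 15 tested members, at a median of 3.60. Pde6c, the catalytic subunit of the cone phosphodiesterase, stood at 6.31 ± 0.10 and its inhibitory subunit Pde6h at 5.78 ± 0.08. Arr3, the cone arrestin, stood at 5.71 ± 0.05 and Kcne2, a potassium channel subunit, at 6.25 ± 0.17. The member not called was Rxrg, a nuclear receptor, where the probe read was at 0.07 and another probe of the gene at 4.48. Rxrg and, below, Kdr, Tyrp1, Pmel, Rpe65, Cryaa and Fos were chosen after their values were seen.

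Of the 8 opsin genes 7 could be tested, and 5 were higher. The middle-wavelength cone opsin Opn1mw read 3.29, 3.34, 3.18 and 3.37. The short-wavelength cone opsin Opn1sw read 2.10, 2.05, 1.92 and 2.19, with Cy3 measured on 3 arrays. The 4 values of Opn1sw lie below all 4 of Opn1mw, as ratios to a pool that may hold unequal amounts of each. Rrh, the peropsin of pigment epithelium, stood at 5.30 ± 0.13 with Cy3 measured on 2 arrays. Rgr, an opsin of pigment epithelium and Müller glia, was at least 5.04-fold higher, its Cy3 being above background on none of the arrays. Opn4, the melanopsin of a small class of ganglion cells, averaged 0.28 ± 0.14 and Opn3, encephalopsin, -0.39 ± 0.06, and neither was called. Opn5, neuropsin, was too dim in both dyes to be tested.

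Genes that serve photoreceptors went the same way. Of 31 tested genes of the photoreceptor cilium and disc 25 were higher and none (0) lower, at a median of 2.61, among them Rpgrip1, a scaffold of the connecting cilium, at 6.49 ± 0.11. Of 16 visual cycle genes, which regenerate the chromophore retinal, 9 were higher and 2 lower. Rlbp1, the retinaldehyde-binding protein of Müller glia and pigment epithelium, stood at 6.26 ± 0.13. Abca4, the disc transporter of retinal, stood at 4.44 ± 0.02, and Rbp3, the carrier between photoreceptors and pigment epithelium, at 4.04 ± 0.16. The 2 lower genes were Rbp4, the retinol carrier of plasma, at -1.45 ± 0.10 and Retsat, a retinol saturase, at -1.30 ± 0.08. Both calls were lost with median centring (limma treat adjusted p = 0.245 and 1) and with no normalization (1 and 1).

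Of 29 tested retinal transcription factors 25 were higher, at a median of 3.47. Nrl, which sets rod fate, read 6.60, 6.65, 6.84 and 6.78, and Otx2, a homeobox factor of photoreceptors, bipolar cells and pigment epithelium, 6.57, 6.62, 6.59 and 6.76. Samd7, a Polycomb component of rods, stood at 7.35 ± 0.17 with Cy3 measured on 1 array only. Prdm8, a factor of bipolar and amacrine cells, was at least 98.7-fold higher. Esrrb stood at 4.38 ± 0.15 and Sox2 was at least 11.8-fold higher. Both are best known from embryonic stem cells, and Esrrb is also a rod gene and Sox2 also a gene of Müller glia and amacrine cells.

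Inner retinal neurons were marked next. All 19 tested bipolar genes were higher, at a median of 4.27. Grm6, the glutamate receptor of ON bipolar cells, read 6.66, 6.84, 6.64 and 6.63, a 103-fold excess over the reference. Gng13, a G protein subunit of the same cells, stood at 5.61 ± 0.04. Car8, a carbonic anhydrase relative, was at least 30.3-fold higher. Amacrine genes were higher in 19 of 21, at a median of 2.90. Tfap2b, a factor of amacrine and horizontal cells, had Cy3 above background on no array and was at least 106-fold higher, the highest bound of any gene with a symbol. Gad1, which makes the inhibitory transmitter GABA, stood at 5.91 ± 0.08 with Cy3 measured on 1 array. Slc32a1, which loads that transmitter into vesicles, stood at 5.90 ± 0.05, while another of its probes read 0.28.

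Ganglion cell genes were higher in 19 of 23 tested members, with none lower (0) and a median of 2.73. Nefl, the light neurofilament of long axons, read 6.44, 6.38, 6.40 and 6.50, a mean of 6.43 ± 0.05. Nefm, the medium neurofilament, stood at 5.14 ± 0.10. Chrna6, a nicotinic receptor subunit, stood at 6.29 ± 0.16 and the neuronal tubulin Tubb3 at 4.66 ± 0.15. Thy1, a surface protein of ganglion cells that fibroblasts and T cells also carry, stood at 1.44 ± 0.05. Map3k12 itself read 2.40, 2.51, 2.21 and 2.58, a mean of 2.43 ± 0.16 (limma treat adjusted p = 2.6e-08), and its relative Map3k13 averaged 0.34 ± 0.07 and was not called. Horizontal cell genes were called less evenly, with 5 of 10 higher and a median of 0.85. Septin4, a filament protein, stood at 4.19 ± 0.07 and the anion exchanger Slc4a3 at 2.61 ± 0.09. Calb1, the calcium buffer calbindin, and Prox1, a homeobox factor, were at least 2.38-fold and 2.14-fold higher, whereas Lhx1, a factor of horizontal cells, averaged -0.12 ± 0.04. Prox1 lost its call without array 1, 2 or 3 (limma treat adjusted p = 0.092, 0.154 and 0.178).

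Synaptic genes were higher in 26 of 28 members, at a median of 3.72, and transmitter receptor genes in 31 of 39, at a median of 2.74. Syt1, the calcium sensor of vesicle release, stood at 6.33 ± 0.11. Stx3, the syntaxin of ribbon synapses, stood at 5.76 ± 0.11, Pclo, the active zone protein piccolo, at 5.63 ± 0.08, and Unc13b, a vesicle priming factor, at 5.62 ± 0.11. Other probes of Stx3 and Pclo reached down to -1.03 and 0.06. Receptor genes were often dark in the reference: 15 of the 39 had Cy3 above background on no array. Adra2a, an adrenergic receptor measured in both dyes, stood at 5.17 ± 0.17.

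**Figure D3:**
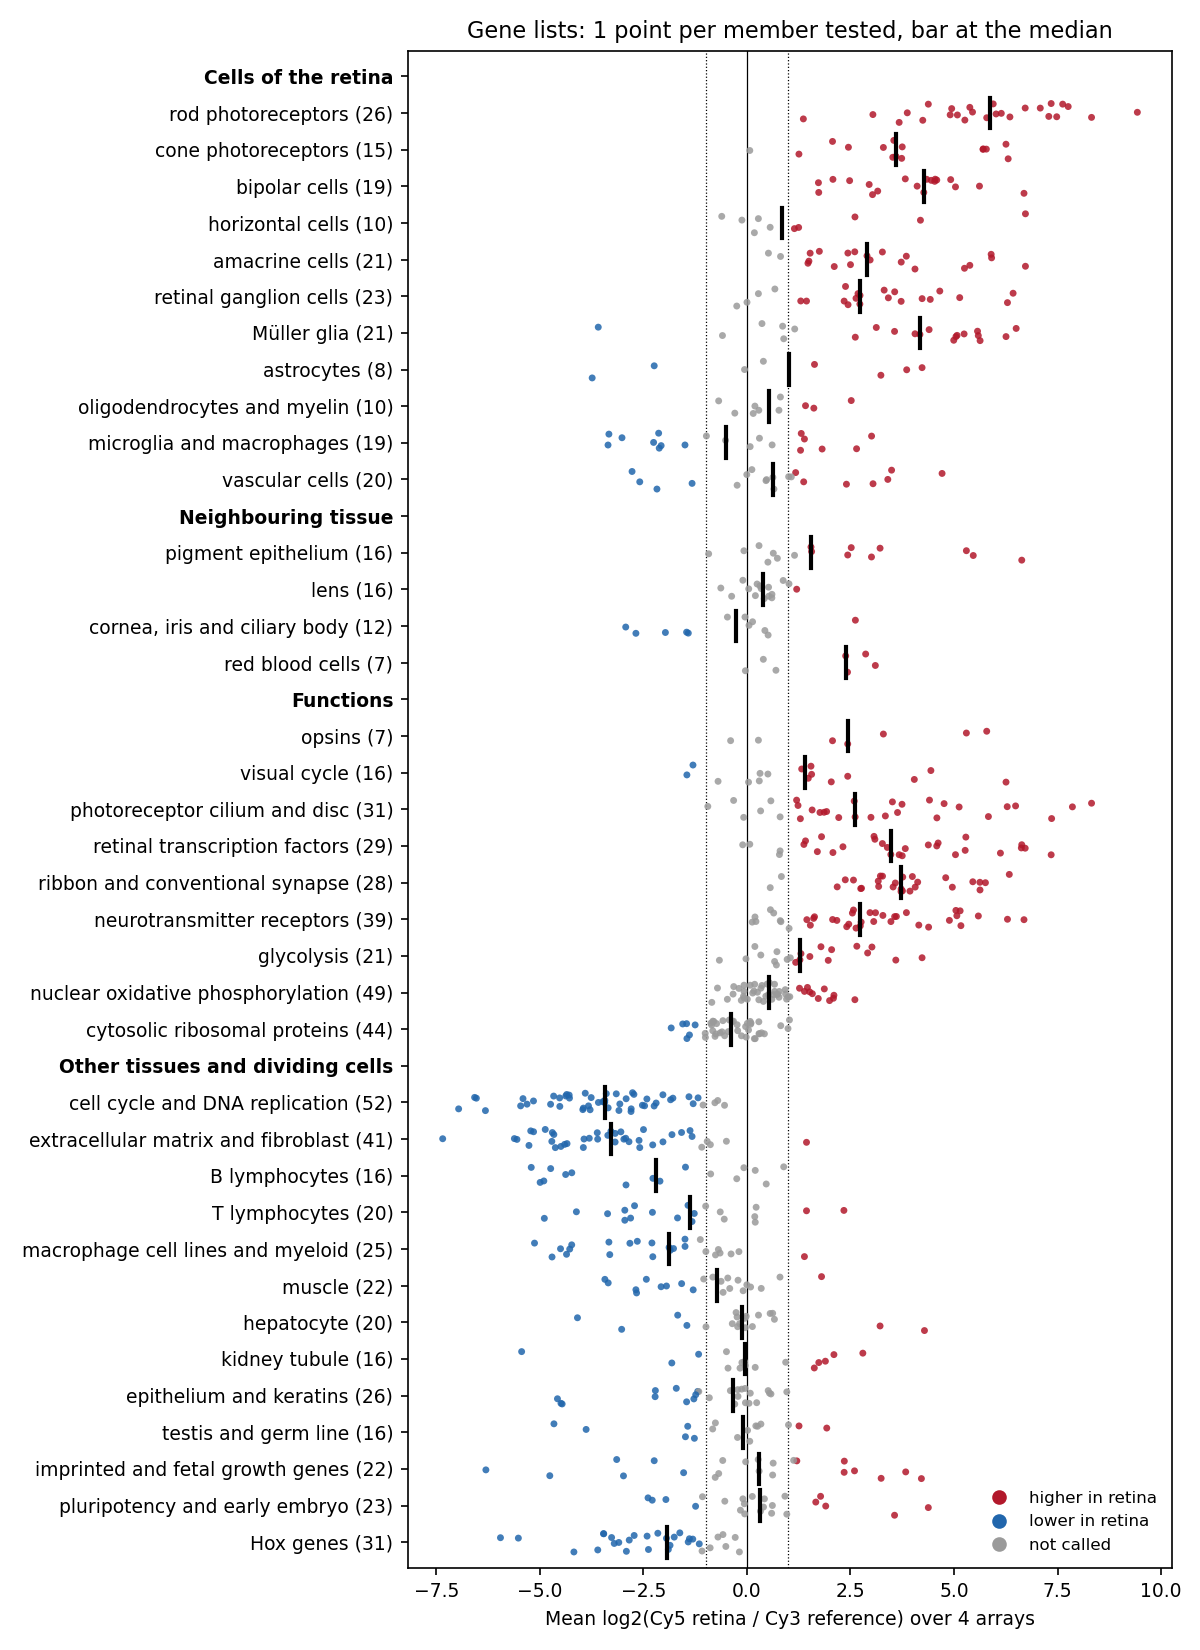
Mean log2 ratio of retina over reference for each tested member of 37 gene lists (number tested in brackets), 1 point per gene, coloured by call, with a black bar at the list median. Rods have the highest median at 5.87, and the cell cycle list has the lowest at -3.43.

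Among glia, Müller cell genes were higher in 15 of 21 and lower in 1, at a median of 4.18. Dkk3, a secreted protein, stood at 6.50 ± 0.10 and Glul, the enzyme that turns glutamate into glutamine, at 5.59 ± 0.06. Kcnj10, the potassium channel Kir4.1, stood at 5.63 ± 0.22 with Cy3 measured on 3 arrays. The exception was Vim, the intermediate filament vimentin, which read -3.64, -3.61, -3.43 and -3.69. It was 12 times lower in retina than in the reference, though its Cy5 was above background on all 4 arrays. Vimentin is also a main filament of cultured fibroblasts. Astrocyte genes split into 4 higher and 2 lower of 8. Aldoc stood at 4.23 ± 0.03, S100b at 3.86 ± 0.16, Slc1a2 at 3.23 ± 0.12 and Aldh1l1 at 1.63 ± 0.04. Another Slc1a2 probe read 0.54, and Aldoc is also counted in the glycolysis list below. Which cells gave these signals was not tested. Those lower were Pdgfra at -3.74 ± 0.10 and Igf2bp1 at -2.24 ± 0.09. Gfap, the filament of astrocytes and of stressed Müller cells, averaged 0.40 ± 0.06, and Pax2, the factor of optic nerve head astrocytes, -0.06 ± 0.04. Neither was called.

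Myelin is largely missing from the mouse retina, since the axons are sheathed only behind the eye. Of 10 tested myelin and oligodendrocyte genes 3 were higher, at a median of 0.53, and they include Ermn at 2.52 ± 0.23 and Mbp at 1.41 ± 0.06. The myelin surface proteins Mog and Mag averaged 0.81 ± 0.08 and -0.68 ± 0.10 and were not called. Another Mbp probe read -0.11, and the mean of its probes, 0.46, was not called (limma treat adjusted p = 1).

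Microglial genes went both ways, with 6 of 19 higher and 8 lower. Cx3cr1, the fractalkine receptor of microglia, read 2.88, 3.03, 2.92 and 3.21, and Siglech, another microglial surface protein, averaged 2.65 ± 0.17. Another probe of each read 0.19 and 0.80. The Siglech probe that was read had a mean Cy5 of log2 17.19, against 10.12 for Cx3cr1 and 16.77 for the rod gene Gnat1. Whether that signal came from Siglech RNA was not tested. C1qc, a chain of complement C1q, and Itgam, an integrin of myeloid cells, stood at 1.82 ± 0.06 and 1.39 ± 0.07. Other Itgam probes reached down to -0.21, and with the mean of all probes its call was lost (0.36, limma treat adjusted p = 1). Below the reference lay Fcer1g (-3.35 ± 0.14), Ptprc (-3.33 ± 0.13), Trem2 (-3.02 ± 0.03) and Laptm5 (-2.25 ± 0.12), which macrophages and other blood cells also use. All 19 had Cy5 above background on all 4 arrays. Genes of macrophage lines and myeloid cells, listed as possible content of the pool, were lower in 17 of 25. How far macrophage RNA in the pool set these ratios was not tested.

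Vascular genes were higher in 7 of 20 and lower in 4, at a median of 0.64. The share lower, 20%, lay near the 16.2% lower over all genes. Vtn, vitronectin, stood at 4.71 ± 0.05, and which cells gave that signal was not tested. Its mean Cy5 was log2 15.3, against 10.91, 10.55 and 14.14 for the list members Esam, Cldn5 and Flt1. The endothelial junction proteins Esam and Cldn5 stood at 3.49 ± 0.05 and 3.40 ± 0.22, and Flt1, a receptor of the growth factor VEGF, at 3.04 ± 0.14. Lower were Ly6c1 (-2.77 ± 0.14), the smooth muscle actin Acta2 (-2.59 ± 0.07), and the mural cell genes Cspg4 (-2.17 ± 0.05) and Pdgfrb (-1.32 ± 0.05). The call of Pdgfrb was lost with median centring and with no normalization (limma treat adjusted p = 1 in both). Kdr, the main VEGF receptor, was read from a probe at -0.24 while another of its probes read 4.84. Red blood cell genes were higher in 4 of 7, all globins: Hbb-bt at 3.1 ± 0.22, Hba-a2 at 2.87 ± 0.24, Hbb-b2 at 2.43 ± 0.20 and Hba-a1 at 2.38 ± 0.20. These globins are near copies of one another, so their probes may share RNA.

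Lists of neighbouring tissue were examined too. Of 16 tested genes of the pigment epithelium, the layer behind the retina, 9 were higher and none lower (0), at a median of 1.55. Dct, a pigment enzyme with Cy3 above background on no array, was at least 44.1-fold higher and read 4.58, 4.82, 5.50 and 6.95. Array 4 stood above the other 3, and it did so also for Tyrp1 (2.86, 2.51, 2.75 and 3.90), Mlana (0.40, 0.71, 0.80 and 2.69) and Pmel (0.20, 0.55, 0.57 and 1.61), all genes of pigment granules. These 4 genes are shared by pigment epithelium and melanocytes. Rpe65, the isomerase of pigment epithelium, read 1.92, 1.37, 1.95 and 0.94, lowest on array 4. Ttr, the thyroid hormone carrier that pigment epithelium makes, read 3.63, 2.94, 3.67 and 2.62, also lowest there. Which cells set these differences between arrays was not tested. Mlana and Pmel were not called.

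Lens genes were called in 1 of 16 tested, Lenep at 1.20 ± 0.12, and the crystallin Crygs read 0.88, 2.002, 0.42 and 0.19, highest on array 2. Cryaa, another crystallin, read 0.60, 1.37, 0.41 and 0.03 in the same order of arrays. Neither crystallin was called. Of 12 genes of cornea, iris and ciliary body 1 was higher, Wfdc2 at 2.62 ± 0.12, and 5 were lower, led by Lum at -2.93 ± 0.11 and Des at -2.68 ± 0.03, both with Cy5 measured on 1 array. The part of neighbouring tissue in the ratios of other genes was not tested.

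By SD among genes with Cy5 above background on all arrays, Egr1, an immediate early gene of active neurons, came first, at -3.73, -1.77, -3.56 and -1.47. Fos, another immediate early gene, read -2.69, -1.83, -2.44 and -1.73, with arrays 2 and 4 again above arrays 1 and 3. Slc15a2, a peptide transporter, read 2.96, 3.99, 2.85 and 4.63. Dus4l, which encodes a dihydrouridine synthase, read 0.38, -0.70, 0.87 and -0.92, and Ap2b1, an adaptor subunit of clathrin coats, read -0.71, -2.13, -0.97 and -2.23. Both were lower on arrays 2 and 4 than on arrays 1 and 3, the opposite order to Slc15a2. Ap2b1 was not called on 4 arrays but was without array 1 or 3 (limma treat adjusted p = 0.0108 and 0.0377). Fndc1, a fibronectin domain gene, read 3.59, 1.72, 3.79 and 3.33, lowest on array 2, while its lowest probe read 0.06. Xlr3b and Xlr4a, members of a multicopy family on the X chromosome, read -4.38, -4.24, -1.82 and -3.57, and -4.85, -4.90, -2.82 and -4.13, both highest on array 3. Each array lay on its own slide, so slide and sample cannot be told apart.

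**Figure D4:**
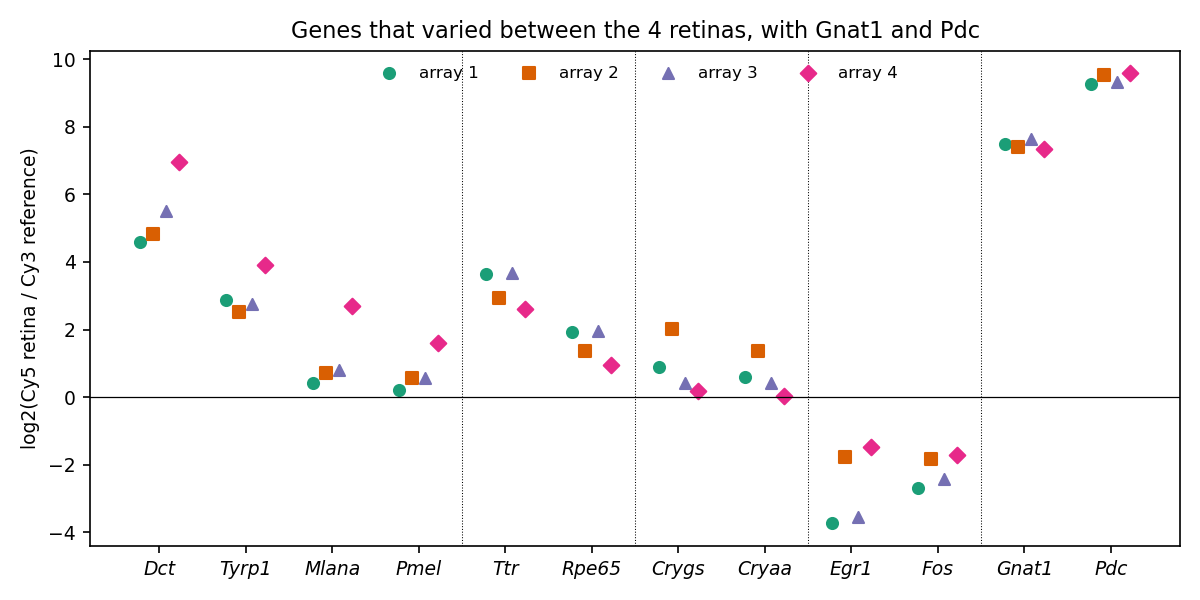
The log2 ratio of retina over reference on each of 4 arrays for pigment granule genes, pigment epithelium genes, crystallins and immediate early genes that varied, beside Gnat1 and Pdc. Array 4 is highest for Dct at 6.95 and array 2 for Crygs at 2.002, while the values of Gnat1 lie between 7.35 and 7.65.

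For Pdc and Mki67, the 5 Cre-positive uncrushed retinas gave ratios close to these, against the same reference. Pdc read 9.32 to 9.74 in Cre-positive and 9.26 to 9.59 in Cre-negative retinas. Mki67 read -6.69 to -6.36 in Cre-positive and -6.66 to -6.36 in Cre-negative retinas. The pigment gene Dct spread there too, and read 5.02 to 7.77 in Cre-positive and 4.58 to 6.95 in Cre-negative retinas. No difference between the genotypes was tested.

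Energy metabolism was marked by glycolysis, on which photoreceptors are known to rely even with oxygen. Of 21 genes of glycolysis and lactate 12 were higher and none lower (0), at a median of 1.28. Hk1, the hexokinase of most neurons, stood at 3.59 ± 0.10, Hk2, the hexokinase found in photoreceptors, at 3.02 ± 0.26, and Ldhb, a lactate dehydrogenase subunit, at 2.91 ± 0.10. The second Hk1 probe read 0.41. Gapdh, a glycolytic enzyme often used as a control gene, averaged 1.52 ± 0.07 on the probe that was read, but its 7 probes ran from -2.01 to 1.52. The mean of all 7 was -0.32 and not called, so no direction is given for it. Of 49 nuclear genes of oxidative phosphorylation 11 were higher (22.4%), at a median of 0.54, led by Ndufa4 at 2.61 ± 0.16, Sdha at 2.10 ± 0.07, Atp5b at 2.09 ± 0.07 and Atp5a1 at 1.995 ± 0.08. Of 44 cytosolic ribosomal protein genes none (0) was higher and 6 were lower (13.6%), at a median of -0.39, led by Rps19 at -1.83 ± 0.15 and Rpl18 at -1.55 ± 0.09. Both shares lie near the share called over all genes. Actb, cytoplasmic actin, read 0.04, -0.12, -0.07 and -0.22 and was not called.

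Genes of dividing cells led the other side. Of 52 tested genes of the cell cycle and DNA replication 48 were lower and none (0) higher, at a median of -3.43 and with array medians of -3.46 to -3.38. Uhrf1, which carries DNA methylation through replication, read -6.97, -7.02, -6.91 and -6.95 on the probe that was read, and its other probe -1.36. Rrm2, which makes the building blocks of DNA, stood at -6.58 ± 0.03 and Birc5, survivin, at -6.31 ± 0.06. Retinal signal was still above background on all 4 arrays for 44 of the 52. It was so on none for 6, among them Bub1, a kinase of the spindle checkpoint, at least 36.1-fold lower.

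Extracellular matrix and fibroblast genes followed, with 36 of 41 lower and 1 higher, at a median of -3.28. Beside Col1a1, Col3a1, another fibrillar collagen, stood at -5.62 ± 0.19 and Thbs1, thrombospondin 1, at -5.26 ± 0.15. Lox, which cross-links collagen, stood at -5.55 ± 0.17 with Cy5 measured on 1 array. The higher gene was Thy1, described above with the ganglion cells.

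Of 16 B cell genes 10 were lower, at a median of -2.19, led by Sdc1 (-5.21 ± 0.08), the antigen receptor chain Cd79b (-4.99 ± 0.06), its adaptor Blnk (-4.90 ± 0.08) and the coactivator Pou2af1 (-4.74 ± 0.07). Of 20 T cell genes 12 were lower and 2 higher, at a median of -1.37. Gata3, a T helper factor, was at least 24.7-fold lower, Tcf7 stood at -4.12 ± 0.07 (another probe at -1.43) and Cd3g, a chain of the T cell receptor complex, at -3.37 ± 0.05. The higher ones were Satb1, a chromatin factor that neurons share, at 2.34 ± 0.09, and Thy1. Of 25 myeloid genes 17 were lower, at a median of -1.88, led by Lilrb4a at -5.13 ± 0.07, Ccl4 at -4.71 ± 0.13 with Cy5 measured on 3 arrays, and the lipopolysaccharide receptor Cd14 at -4.50 ± 0.23.

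Among markers of other organs, the counts were mixed. The shares lower in liver (20%) and kidney (18.8%) lay near the 16.2% lower over all genes. Of liver genes 10% and of kidney genes 31.2% were higher, against 19.6% over all genes. Muscle genes were lower in 9 of 22, with Acta1 at -3.43 ± 0.07, and Mef2c, a factor that neurons share, was higher at 1.80 ± 0.12. Epithelial genes were lower in 10 of 26 and higher in none (0), with the keratins Krt19 at -4.58 ± 0.16 and Krt8 at -4.49 ± 0.03. Epcam, an epithelial adhesion molecule, stood at -4.46 ± 0.09 with Cy5 measured on 3 arrays. Liver genes were lower in 4 of 20, with Afp, alpha-fetoprotein, at least 16.9-fold and Foxa1 at least 7.18-fold lower. Ttr at 3.21 and Trf, transferrin, at 4.29 ± 0.19 were the 2 liver genes that were higher. Kidney genes were lower in 3 of 16, with Wt1, a factor of the developing kidney, at least 36.7-fold lower, and higher in 5, among them Lrp2, the receptor megalin, at 2.80 ± 0.07 and the water channel Aqp1 at 2.10 ± 0.07.

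Germ line genes were lower in 5 of 16, led by Rhox5 at -4.66 ± 0.08, and higher in 2, of which Nr5a1, a factor of steroid-making cells, stood at 1.93 ± 0.25. Pluripotency genes were lower in 4 of 23, with Klf4 at -2.29 ± 0.07 and Tfcp2l1 at -2.39 ± 0.13, and higher in 5, Esrrb and Sox2 among them. These shares, 17.4% lower and 21.7% higher, lay near the 16.2% and 19.6% over all genes. Imprinted and fetal growth genes were lower in 6 of 22 and higher in 7. Dlk1 at -6.30, Hmga2, a fetal chromatin protein, at -4.76 ± 0.08 and the RNA-binding protein Igf2bp3, at least 8.38-fold, were among the lower ones. Mest stood at 4.21 ± 0.03 (its lowest probe at 1.08), Snrpn, a splicing protein of neurons, at 3.83 ± 0.14, the non-coding RNA Meg3 at 3.24 ± 0.03 and the cell cycle inhibitor Cdkn1c at 2.60 ± 0.20.

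Hox genes, which give position along the trunk and limbs, were the list most often missing from retina. Of 39 on the array, 31 could be tested, and 24 of these were lower and none (0) higher, at a median of -1.94. Hoxc6 read -6.07, -5.71, -5.81 and -6.22 with Cy5 measured on 3 arrays, and Hoxc9 read -5.48, -5.59, -5.38 and -5.62 with Cy5 measured on 2. Cy5 was above background on none of the arrays for 18 of the 31, whose ratios are bounds: Hoxc4 was at least 16.2-fold, Hoxd8 10.4-fold and Hoxb13 8.92-fold lower. By every probe 24 of the 39 were dark in retina. Of the 31 tested, 7 had Cy5 above background on all 4 arrays: Hoxa3, Hoxa6, Hoxa7, Hoxa9, Hoxb6, Hoxb7 and Hoxc13. Of these 5 were called lower, at -3.20 to -1.31, and Hoxa6 at -0.18 ± 0.03 and Hoxa9 at -0.51 ± 0.21 were not called. Hoxa4 and Hoxd3, at -0.28 ± 0.08 and -0.58 ± 0.11 with Cy5 measured on 2 arrays and 1 array, were not called either. Hoxd3 was called lower at -1.46 with plain background subtraction and at -2.08 with Agilent processed signals (limma treat adjusted p = 0.0178 and 0.000696). Hoxc13 lost its call with median centring, at -0.94, and with no normalization, at -0.53.

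Genes missing from one RNA were counted without a test. In all 959 genes (3.9% of those tested) had Cy5 well above background on all 4 arrays and Cy3 on none, and are called here missing from the reference. In 546 genes (2.22%) Cy3 was so on all 4 arrays and Cy5 on none, and these are called missing from retina. Leaving out genes with another probe above background on the missing side left 909 and 533. Missing means not well above background on these arrays, and most of these genes were dim on the brighter side. The bound on the ratio had a median of 1.93-fold for genes missing from the reference, 423 of which were called higher. It had a median of 2.18-fold for genes missing from retina, 281 of which were called lower.

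Among genes missing from the reference, Tfap2b and Prdm8 had the highest bounds. Elovl2, which lengthens the fatty acid chains of photoreceptor membranes, was at least 70.6-fold higher. Elmod1 (53.5-fold), the follistatin relative Fstl5 (52.2-fold), the carbonic anhydrase relative Car10 (51.3-fold), the ion channel subunit Unc80 (50.3-fold) and the synaptic protein C1ql3 (48.8-fold) had bounds of that size too, and Dct was also among the 10 highest. Another Unc80 probe read a log2 ratio of 1.16. Among genes missing from retina, Ska1, which ties chromosomes to the spindle, was at least 48.2-fold lower. Clec4d, a lectin of macrophages, was at least 37-fold lower, Mmp3, a matrix protease, 32.9-fold, Twist2, a mesenchymal factor, 25.5-fold and Ereg, an epidermal growth factor relative, 24.7-fold. Spinkl was at least 30.8-fold lower, and Gm2012 (27.1-fold) and Slx (26.0-fold), both of multicopy families on the X chromosome, had probes that near copies may share.

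Missing genes were scarce among bright ones. Of 1970 genes whose mean normalized Cy5 was above log2 14, none (0) had a dark Cy3, and of 1579 genes with Cy3 above log2 14 none (0) had a dark Cy5. The share with a dark partner was 9.49% where Cy5 lay below log2 8, 4.23% between 8 and 10, 1.26% between 10 and 12 and 0.456% between 12 and 14. For Cy3 the shares over the same ranges were 6.97%, 2.31%, 0.471% and 0. Of the 3977 genes called lower, 3494 (87.9%) still had Cy5 above background on all 4 arrays, and of the 4807 called higher, 3953 (82.2%) had Cy3 so. Whether that residual signal came from the weaker RNA or from unspecific binding of the other was not tested.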

How the data were processed

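Whole-retina RNA (Cy5) and a universal mouse reference RNA (Cy3) were hybridised to 2-colour Agilent arrays. The deposited scanner files hold spot and local background intensity values with no normalization, and processed intensity values from Agilent Feature Extraction 10.7.3.1, per the file headers. The log2 values of the authors' deposited matrix (a single value for each probe and array) were made with limma, per the submitters' processing notes. That they are log2 of Cy5 over Cy3 is not stated, and was taken from their fit to the ratios here, since they correlated at r of 1 across probes on each of the 4 arrays, with slopes of 1.001 and column medians of 0.017 to 0.0237. For limma's version and the authors' normalization the entry is: not given in the sources used here.

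In R 4.3.3 with limma 3.58.1 (files read by version 1.17.8 of data.table), median spot and background intensities were combined by normexp with an offset of 50, followed by loess within each array. Median signals stand in for the planned mean signals, which are not among the files' columns. With this offset dim spots have ratios nearer to 0. The 43020 non-control spots gave 39429 probes, of which 26581 were paired with 1 of 20144 symbols through RefSeq accessions, while the other 12848, without a symbol, each counted as a gene of its own. A gene was read from its probe with the highest mean intensity. Of the genes called, 2038 had several probes, and 397 of these had probes of opposite sign. Genes entered where Cy5 or Cy3 was well above background on at least 3 of 4 arrays. The 4 arrays were fitted alone (3 residual and 5.26 prior degrees of freedom), with treat against a 2-fold ratio, two-sided. The reference is 1 pool, so the test leaves out its spread. Lower bounds compare the brighter dye with the higher of the dim probe's own signal and the lowest signal well above background, per array after loess and Aquantile scaling, and are open to dye bias.

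The 37 gene lists hold 935 entries, of which 923 were on the array, 5 of them under an older symbol, and 837 were tested. The members and lists were chosen with earlier results of these data known, and lists carry no test. With genes dark in 1 dye set at their bound, no list median moved by more than 0.0993. Named are the 10 highest and 10 lowest ratios measured in both dyes, the 10 highest bounds each way and the 10 genes of highest SD. From each list come up to 4 members with the largest ratio in its main direction and up to 4 called the other way. Any member of small lists, of the opsins and of the Hox genes, Map3k12, Map3k13, Gapdh, Actb and genes with a printed promoter may be named as well. The procedure was tested on simulated data. Probes get no coordinates here, since builds differ between the arrays' design and the promoter table. Alternatives in background correction, normalization, signals, filter, probe choice, fit, threshold and arrays are given in the closing section. Some genes that the naming rule covers are not reported here.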

Additional observations from a re-analysis of the deposited data

Results flagged for a closer look

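In 8 of the 202 genes named and in 2 of the 37 list medians, 1 of the 4 arrays lay so far from its nearest neighbour that Dixon's criterion for 4 values set it apart. Chance does so in about 1 group in 20, so the number of genes set apart is not above what chance gives. Array 2 stood apart for Grm6 at 6.84 (other arrays 6.63 to 6.66), Gfap at 0.31 (0.42 to 0.44), Epcam at -4.33 (-4.51 to -4.50) and Des at -2.64 (-2.70 to -2.69). Array 3 stood apart for Kcnj10 at 5.31 (5.71 to 5.78) and Pclo at 5.50 (5.66 to 5.68), array 1 for Rbp4 at -1.30 (-1.51 to -1.49) and array 4 for Rpl39l at -6.07 (-6.29 to -6.26). The median of the pigment epithelium genes was 1.41 on array 2 and 1.87 to 1.88 on the other 3, and that of the myelin genes was 0.40 on array 1 and 0.55 to 0.57 on the other 3.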

How the results depend on the processing

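Of the 4807 genes higher and 3977 lower in retina, those called again under another setting kept their direction in every setting run. The counts were 11717 and 10079 when ratios were tested against 0, and 2143 and 1598 at a 4-fold threshold, by construction of the rule. With no normalization they were 8433 and 2223, and the median ratio of all genes moved to 0.673, against 0.07. With median centring it moved to 0.268. The cause was not tested. Leaving out each array in turn gave 4695 to 4757 higher and 3897 to 3931 lower genes. In the other settings, which covered background correction, processed signals, the authors' table, filters, mean of probes, the fit over 17 arrays and the added array, counts stayed within 1.5 times. Genes missing from the reference numbered 959, against 1607 when 3 of 4 and 1 of 4 arrays sufficed and 190 by the scanner software's weaker flag of signal above background. Genes missing from retina numbered 546, against 981 and 141. Without 1 array these were 1043 to 1202 and 600 to 713. The counts of missing genes therefore depend on the flag. Over named genes and settings, 3594 results were unchanged in call, 42 lost the call, 20 gained it and 1 reversed: Gapdh, at -0.32 as the mean of all probes. A change of sign was counted only for genes called in the main or the other setting, so uncalled genes may have changed sign. Itgam and Mbp also lost their calls with the mean of probes, at 0.36 and 0.46, and Rbp4, Retsat and Pdgfrb with median centring and with no normalization. The median of 7 of 37 lists changed sign in some setting: microglia, cornea, epithelium, liver, kidney, germ line and imprinted genes. Retina and reference share each array, so the ratio is already paired by array, and no other pairing was run. Signal over background limits the ratios of dim genes, whose partner dye can only be bounded.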

Other observations

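The Cre-negative array whose title and treatment read uncrushed and whose description reads crushed entered no group. On it Crygs read 3.05 and Cryaa 2.71, above all of the 4 uncrushed Cre-negative and 5 uncrushed Cre-positive retinas, which reached at most 2.002 and 1.37. It also read 3.05 for Rpe65 and 4.18 for Ttr, beside 1.76 for Tyrp1 and 0.46 for Mlana. Nefl read 5.59 there, against 6.38 to 6.50 in the 4 uncrushed Cre-negative retinas, and Vim -2.69 against -3.69 to -3.43.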
